A study of Mus musculus with 6 samples.

Results

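The genes described here build and run the primary cilium, a single non-motile antenna that projects from neural progenitors and neurons. They were taken from the deposited table by symbol: every Ift and Bbs gene with a number, the Tctn genes, and a fixed set of further genes of IFT-A, the motors, the transition zone and the centriole. The rule found 41 of the 35274 genes in the table, and all 41 passed the filter on low values. Tctn2 was not analysed here.

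Cilia are assembled and maintained by intraflagellar transport (IFT), in which trains of the IFT-B and IFT-A complexes carry cargo along the axonemal microtubules. Kinesin-2 moves the trains to the tip and dynein-2 brings them back. The BBSome, a coat complex, moves membrane proteins with the trains, and the transition zone at the base acts as a gate. In the developing hippocampus, cilia relay Sonic hedgehog signals, and mice that lack them form a small dentate gyrus. Motile cilia, such as those of ependyma, use the same trains but a different axoneme.

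Poly(A) RNA was sequenced from the dentate neuroepithelium, the hippocampal wall that gives rise to the dentate gyrus, of mouse embryos labelled embryonic day 14. The 3 genotypes were wild type (labelled WT, the control), SOX11f/+ (labelled HTZ, haplodeficient) and SOX11f/f (labelled HOMO, homodeficient), with 2 libraries each. They are called wild type, heterozygous and homozygous below. The sources used here name no Cre line for the floxed alleles and do not say that libraries came from separate embryos or litters, so a p-value here is set against the variation among the sequenced libraries alone, and that variation may be technical.

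Levels are TPM, in which read numbers are divided by transcript length and every library has one common total. Read depth is unknown from such values, and in bulk tissue fewer cells of a type and less RNA per cell cannot be told apart. Between 18722 and 19408 genes per library were above 0 TPM. Sox11, the targeted transcription factor gene, stood at 192 and 130 TPM in the wild type pair, 56.1 and 50.1 TPM in the heterozygous pair and 5.23 and 5.06 TPM in the homozygous pair, so its level followed the labels. Emx2, a transcription factor of the dorsal telencephalon, lay between 58.8 and 110 TPM and Sox2, a progenitor factor, between 73.0 and 104 TPM, while Gfap, a glial filament gene known mainly from later stages, lay between 268 and 576 TPM. The libraries differed in RNA of other ciliated cells. Ttr, the main product of choroid plexus, stood at 11259 and 4.44 TPM in the heterozygous pair and 6421 and 184 TPM in the homozygous pair, against 3.07 and 2.04 TPM in wild type. Foxj1, the regulator of motile ciliogenesis, had 3.0 and 3.14 TPM in wild type and between 26.4 and 131 TPM in the floxed libraries, with heterozygous replicate 1 the highest.

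Promoters of many of these genes carry the X-box, an inverted repeat bound by RFX factors, which are known regulators of cilium genes. Promoter windows of 250 bases before to 50 after the gene start were available from RefSeq (build GRCm38.p6) for 36 of the 41 members, all but Ift80, Dync2li1, Ift122, Ift81 and Tmem67. One arm of the repeat, GTTGCC, was searched on both strands and found in 17 of the 36 members (47.2%), against 15.2% of 10839 tested genes with a window and 14.1% of all windows. The variant arm GTTGCT was found in 9 of the 36 members and in 16.1% of tested genes. The longer GTTGCCATG, which contains the first arm, was in 0 of 36 members and in 0.812% of tested genes. In 13 of the 17 holders, a GTTGCC began within 100 bases of the gene start. A more complete form, GTTGCC followed after at most 3 bases by GGNAAC, was found in 5 members (13.9%) and in 0.747% of tested genes. This form was chosen after the windows had been seen. A match describes letters in a window and is not a measured binding site.

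The first lines below show GTTGCC, in capitals, in its flanking bases for 4 of the members named below for their small p-values. The last 4 lines show members with the more complete form. Each is written along the strand on which the arm reads GTTGCC, and windows end where the RefSeq window ends.
B9d1 (chr11:61505152-61505181, minus strand): aggccgcgcgctGTTGCCaggaggctctcg
Wdr35 (chr12:8974029-8974050, plus strand): tgggcggcggtgGTTGCCaggc
Bbs1 (chr19:4906609-4906638, minus strand): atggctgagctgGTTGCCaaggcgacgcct
Ift172 (chr5:31291097-31291126, minus strand): tgtcgcactcacGTTGCCtgtgcgtcagcg
Bbs7 (chr3:36613493-36613522, minus strand): gaatgcgccccgGTTGCCttggaaaccggc
Mks1 (chr11:87853179-87853208, plus strand): gccagcgtctccGTTGCCaggggaacgagg
Tctn1 (chr5:122264411-122264436, minus strand): taggctgtgactGTTGCCcgggcaac
Tctn3 (chr19:40612354-40612383, minus strand): aggctcccagcgGTTGCCaggtaacgggaa

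**Figure D1:**
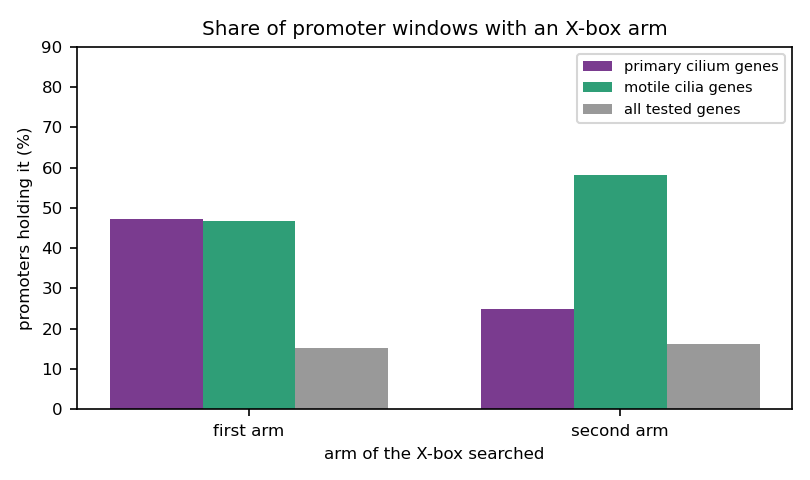
Share of promoter windows, in percent, that hold the X-box arm GTTGCC (labelled first arm) or its variant GTTGCT (labelled second arm). Shares are given for the primary cilium genes, for 60 motile cilia genes and for all tested genes with a window. GTTGCC was in 47.2% of primary and 46.7% of motile cilium windows against 15.2% of all, while GTTGCT was in 9 of 36 primary cilium windows, 58.3% of motile ones and 16.1% of all.

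Mean levels over the 6 libraries ran from 3.27 TPM for Bbs10 to 118 TPM for Kifap3, with a median of 15.95 TPM, against 21.5 TPM for all 14518 tested genes. The motors spanned the widest range. Among the motors the kinesin-2 subunits were the highest, with Kifap3, the adaptor, between 107 and 132 TPM, Kif3a between 81.7 and 101.7 TPM and Kif3b between 58.6 and 74.0 TPM. Dync2h1, the dynein-2 heavy chain, lay between 8.83 and 11.5 TPM. IFT-B genes had a median of 32.2 TPM, from 13.5 for Ift88 to 72.0 for Ift20, and IFT-A genes a median of 17.1 TPM, from 8.29 for Ttc21b to 31.4 for Ift43. The BBSome lay between 10.9 (Bbs2) and 28.9 TPM (Bbs4), and the chaperonin-like Bbs10 and Bbs12, which help to assemble it, at 3.27 and 6.03 TPM. In the transition zone, B9d1 was the highest at 50.9 TPM and Mks1 the lowest at 7.44 TPM. Of the last pair, Arl13b, a GTPase of the ciliary membrane, averaged 14.8 TPM and Ofd1, an X-linked gene of the centriole, 6.28 TPM.

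The members stood together in single libraries. Heterozygous replicate 1 held the highest of the 6 values for 28 of 41 members, and wild type replicate 2 the lowest for 22. For comparison, heterozygous replicate 1 held the highest value of 18.6% of all tested genes. The share of all tested genes lowest in wild type replicate 2 was not computed, and that library was the lower of its pair for most tested genes. The median member stood 0.36 above the wild type mean in heterozygous replicate 1, -0.02 in heterozygous replicate 2, 0.27 in homozygous replicate 1 and 0.083 in homozygous replicate 2, as differences of log2(TPM + 1). Over all tested genes the same medians lay between -0.074 and -0.027. Replicates of 1 genotype were also apart, since replicate 1 was the higher library for 33 wild type, 39 heterozygous and 37 homozygous comparisons of the 41 members, against 69.7%, 60.0% and 49.0% of all tested genes. Within the heterozygous genotype the median member differed by 0.40 between the libraries, on the same scale, more than the difference between heterozygous and wild type described below.

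**Figure D2:**
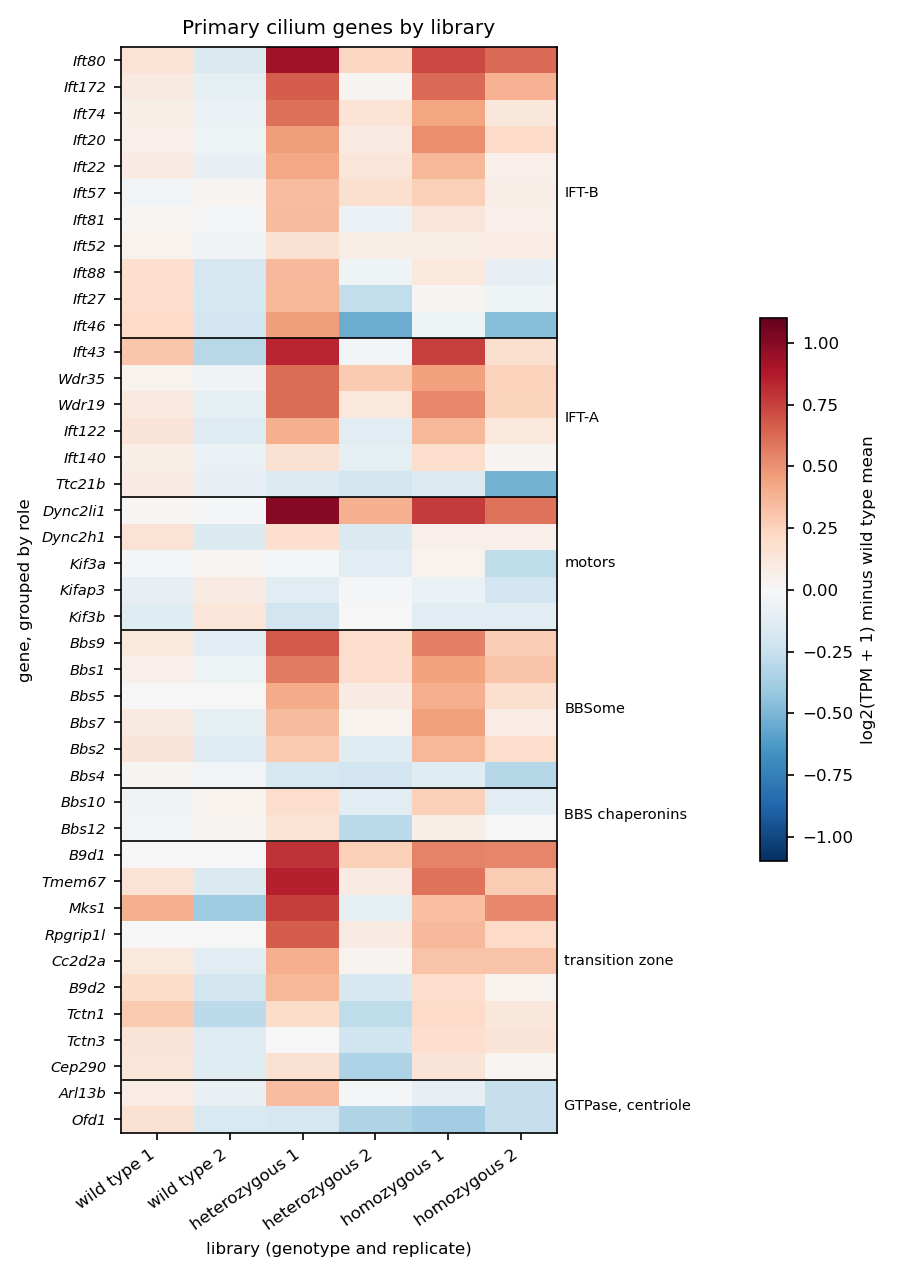
Log2(TPM + 1) of each of the 41 genes minus its wild type mean (colour), by library (columns) and gene (rows, grouped by role and ordered by the mean difference of both floxed genotypes). Heterozygous replicate 1 is the reddest column, with 28 of the 41 highest values, and the kinesin-2 genes, Bbs4, Ttc21b and Ofd1 do not share its colour.

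The RNA of motile cilia was placed beside these levels. The 72 listed genes of the motile axoneme summed to 191 and 173 TPM in the wild type pair, 1441 and 524 TPM in the heterozygous pair and 1189 and 846 TPM in the homozygous pair. In wild type 4 and 5 of them were at 0, and in floxed libraries none. All 70 tested genes of the list had a positive difference in both floxed genotypes, with medians of 1.80 in heterozygous and 2.16 in homozygous tissue. The 20 choroid plexus genes summed to 223 and 187, 12550 and 238, and 7245 and 619 TPM in the same order. The 41 members summed to 1100 and 1014 TPM in the wild type pair, 1323 and 1028 TPM in the heterozygous pair and 1226 and 1068 TPM in the homozygous pair. The libraries highest and second in members were thus also highest and second in both marker sums. The order of the other libraries differed. Wild type replicate 1 was above heterozygous and homozygous replicate 2 in members, but below them in both marker sums. The part of other ciliated cells in the members' levels was not tested.

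**Figure D3:**
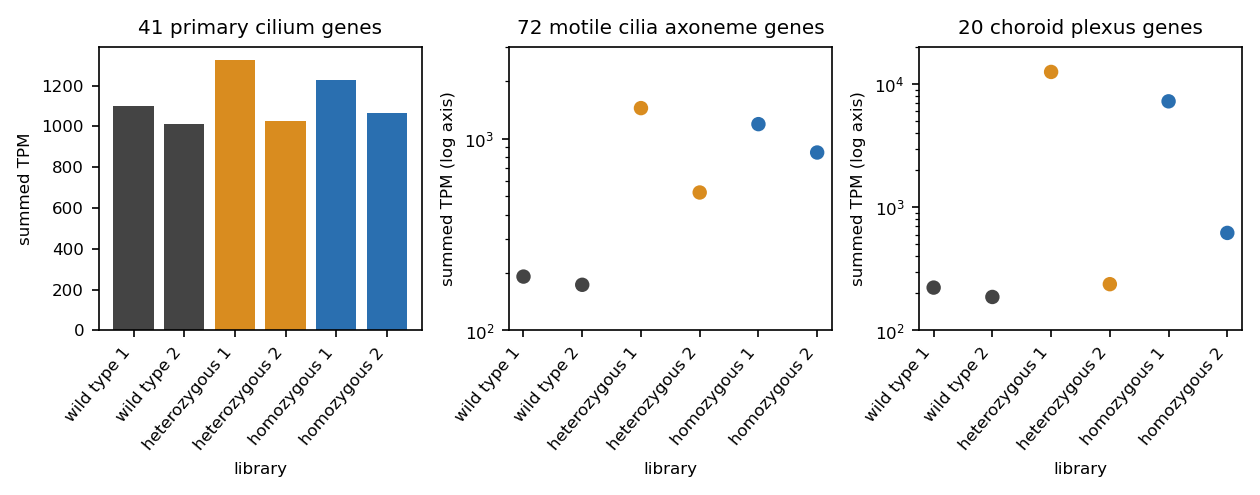
Summed TPM per library (one bar or point each, coloured by genotype) of the 41 primary cilium genes (linear axis from 0), of 72 motile cilia axoneme genes and of 20 choroid plexus genes (log axes). Heterozygous replicate 1 and homozygous replicate 1 stand highest in all 3 panels, at 1323 and 1226, 1441 and 1189, and 12550 and 7245 TPM.

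Heterozygous tissue was compared with wild type first. IFT, BBSome and transition zone genes mostly stood higher and kinesin-2 genes lay close to wild type, but no member passed the test. Of 41 members, 30 lay above and 11 below wild type, where 40.2% of all tested genes lay above. With libraries rescaled to a common median, 34 members lay above. The 40.2% is without rescaling, and the share of all tested genes was not computed for rescaled values. The median difference of log2(TPM + 1) was 0.15, against -0.061 over all tested genes. With limma, 0 of 41 members had an adjusted p under 0.05 (lowest adjusted p = 0.29), and 0.0344% of all tested genes did. At an unadjusted p under 0.05, 3 members were higher and 0 lower, against 6.42% and 7.63% of all tested genes. No overlap between the libraries of the 2 genotypes was seen for 14 higher members (34.1%) and 3 lower ones, where the background was 17.1% and 28.9%. The median rested on 1 library in each direction: it was -0.02 without heterozygous replicate 1 and 0.36 without heterozygous replicate 2.

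Homozygous tissue gave a similar set of values. Of 41 members, 32 lay above and 9 below wild type, where 44.8% of tested genes lay above, and the median difference was 0.17 against -0.036. Again 0 of 41 members passed with limma (lowest adjusted p = 0.17), where 0.0413% of tested genes did. At an unadjusted p under 0.05, 3 members were higher and 0 lower, against 8.35% and 9.8% of tested genes. Libraries did not overlap for 18 higher members (43.9%) and 4 lower ones (background 23.6% and 30.7%). The median was 0.083 without homozygous replicate 1, 0.094 without wild type replicate 2 and 0.30 without wild type replicate 1. This comparison shares its wild type libraries with the one before.

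Between homozygous and heterozygous tissue the median member differed by -0.00035, with 20 members higher and 21 lower. With limma, 0 of 41 passed (lowest adjusted p = 0.9999), where 0.0138% of tested genes did. At an unadjusted p under 0.05 there were 0 members, against 2.05% of tested genes. Libraries did not overlap for 2 members, where the background was 29.1%. They were Tctn3, a transition zone gene at 12.6 and 10.7 TPM in the heterozygous pair and 14.5 and 13.96 TPM in the homozygous pair, and Arl13b, at 18.9 and 14.5 against 13.8 and 12.2 TPM. The next smallest p-values were those of Bbs2, Ttc21b, Tctn1 and Ift57. Their log2 differences lay between -0.16 for Ttc21b and 0.20 for Bbs2, and all 4 changed sign when 1 library was left out. This median too rested on single libraries, at 0.22 without heterozygous replicate 1 and -0.18 without heterozygous replicate 2.

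To use all 4 floxed libraries, the mean of both floxed genotypes was compared with wild type. The median member difference was 0.18, against -0.049 for all tested genes, and 31 of 41 members lay above. With limma, 0 of 41 passed (lowest adjusted p = 0.12), where 0.592% of tested genes did. At an unadjusted p under 0.05, 5 members were higher and 0 lower. Of the 14518 tested genes, 2940 were under 0.05 in either direction, and 1260 of these (8.68% of tested genes) were higher. All 4 floxed libraries lay above both wild type libraries for 13 members (31.7%, background 13.3%) and below them for 3 (background 21.0%). Without the libraries richest in Ttr, heterozygous and homozygous replicate 1, the median was 0.033. It was 0.062 without wild type replicate 2, 0.075 without heterozygous replicate 1 and 0.31 without wild type replicate 1.

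**Figure D4:**
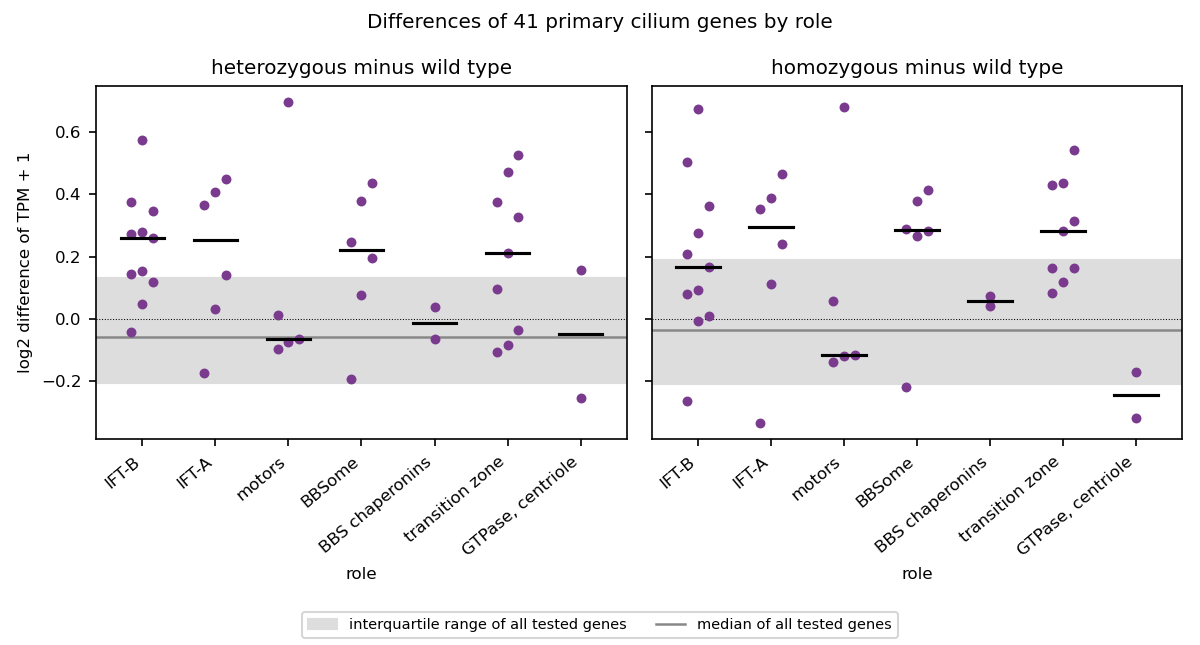
Difference of log2(TPM + 1) from wild type for each of the 41 genes (points), by role, with the role's median (black bar), the median (grey line) and interquartile range (grey band) of all 14518 tested genes, for heterozygous (left) and homozygous tissue (right). Medians of IFT-B, IFT-A, BBSome and transition zone genes lie between 0.17 and 0.30 in both panels, and those of the motors lie at -0.067 and -0.12, the first becoming 0.0079 when libraries are rescaled to a common median.

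Among the 5 motor genes of the rule, a single dynein-2 gene stood apart. Dynein-2 genes outside the rule, such as Wdr60, are in a list described below. Dync2li1, the light intermediate chain of dynein-2 (chromosome 17, 84626496 to 84655588 on the plus strand, GRCm38), had the smallest p of all members in each comparison with wild type. It stood at 20.6 and 19.9 TPM in the wild type pair, 41.6 and 26.9 TPM in the heterozygous pair and 35.3 and 31.1 TPM in the homozygous pair. All floxed libraries lay above both wild type ones. The log2 difference was 0.70 in heterozygous tissue (SE 0.20, limma adjusted p = 0.29), 0.68 in homozygous tissue (SE 0.20, limma adjusted p = 0.17) and 0.69 for both (SE 0.18, limma adjusted p = 0.12). The heterozygous value was 0.39 without heterozygous replicate 1, and without heterozygous replicate 2 it was 1.003 and passed (limma adjusted p = 0.030). Dync2h1, the heavy chain of the same motor, stood at 11.2 and 8.84 TPM in the wild type pair, 11.5 and 8.83 TPM in the heterozygous pair and 10.4 and 10.4 TPM in the homozygous pair, with overlapping groups. The kinesin-2 genes overlapped as well, with differences for both floxed genotypes of -0.093 for Kif3a, -0.11 for Kif3b and -0.11 for Kifap3. In heterozygous tissue Kif3a and Kifap3 changed sign under median rescaling, from -0.067 to 0.0079 and from -0.074 to 0.00059.

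Of the 11 IFT-B genes, 10 lay above wild type in heterozygous and 9 in homozygous tissue. Ift80, whose human gene is mutated in Jeune thoracic dystrophy, was the furthest apart. It stood at 11.7 and 9.20 TPM in the wild type pair, 20.6 and 12.3 TPM in the heterozygous pair and 17.8 and 16.5 TPM in the homozygous pair, so the floxed libraries all lay higher. Its log2 difference was 0.58 (SE 0.25, limma adjusted p = 0.36) in heterozygous tissue, or 0.22 without heterozygous replicate 1 and 0.93 without heterozygous replicate 2. In homozygous tissue it was 0.67 (SE 0.25, limma adjusted p = 0.23). Ift20, which also works at the Golgi, stood at 63.7 and 59.0 TPM in the wild type pair, 84.6 and 65.3 TPM in the heterozygous pair and 87.95 and 71.3 TPM in the homozygous pair, again without overlap. Ift172, the largest IFT-B protein, stood at 18.1 and 15.7, 27.2 and 17.3, and 26.5 and 22.3 TPM in the same order, with heterozygous replicate 2 inside the wild type range. Ift57 stood at 38.1 and 40 TPM in the wild type pair, 49.8 and 44.3 TPM in the heterozygous pair and 47.0 and 41.04 TPM in the homozygous pair. Ift74 and Ift52 were the other genes of this complex with all 4 floxed libraries above wild type. Ift46 spread widely within genotypes, at 84.8 and 63.3, 101 and 49.9, and 70.3 and 52.6 TPM, and Ift88, the gene of the classical cilium mutant mouse, overlapped in both comparisons, as did Ift22, Ift27 and Ift81 over the 4 floxed libraries.

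Of the 6 IFT-A genes, which serve the return trip and the entry of membrane proteins, 5 lay above wild type in both genotypes. Wdr35, also called IFT121, stood at 18.1 and 17.1 TPM in the wild type pair, 27.5 and 21.7 TPM in the heterozygous pair and 24.4 and 21.2 TPM in the homozygous pair, without overlap. Its log2 difference for both floxed genotypes was 0.40 (SE 0.14, limma adjusted p = 0.19). Wdr19, also called IFT144, stood at 10.03 and 8.45 TPM in the wild type pair, 14.7 and 10.05 TPM in the heterozygous pair and 13.8 and 11.1 TPM in the homozygous pair. All 4 floxed libraries were higher, but heterozygous replicate 2 was nearly level with wild type replicate 1. Ttc21b, also called IFT139, was the gene below wild type, at 10.1 and 8.73 TPM in the wild type pair, 8.37 and 8.02 TPM in the heterozygous pair and 8.34 and 6.22 TPM in the homozygous pair, and did not pass (limma adjusted p = 0.41 for both floxed genotypes). Ift43, Ift122 and Ift140 overlapped between genotypes, and Ift43 spread widely within them, at 30.4 and 19.7, 44.6 and 24.0, and 41.9 and 27.8 TPM.

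**Figure D5:**
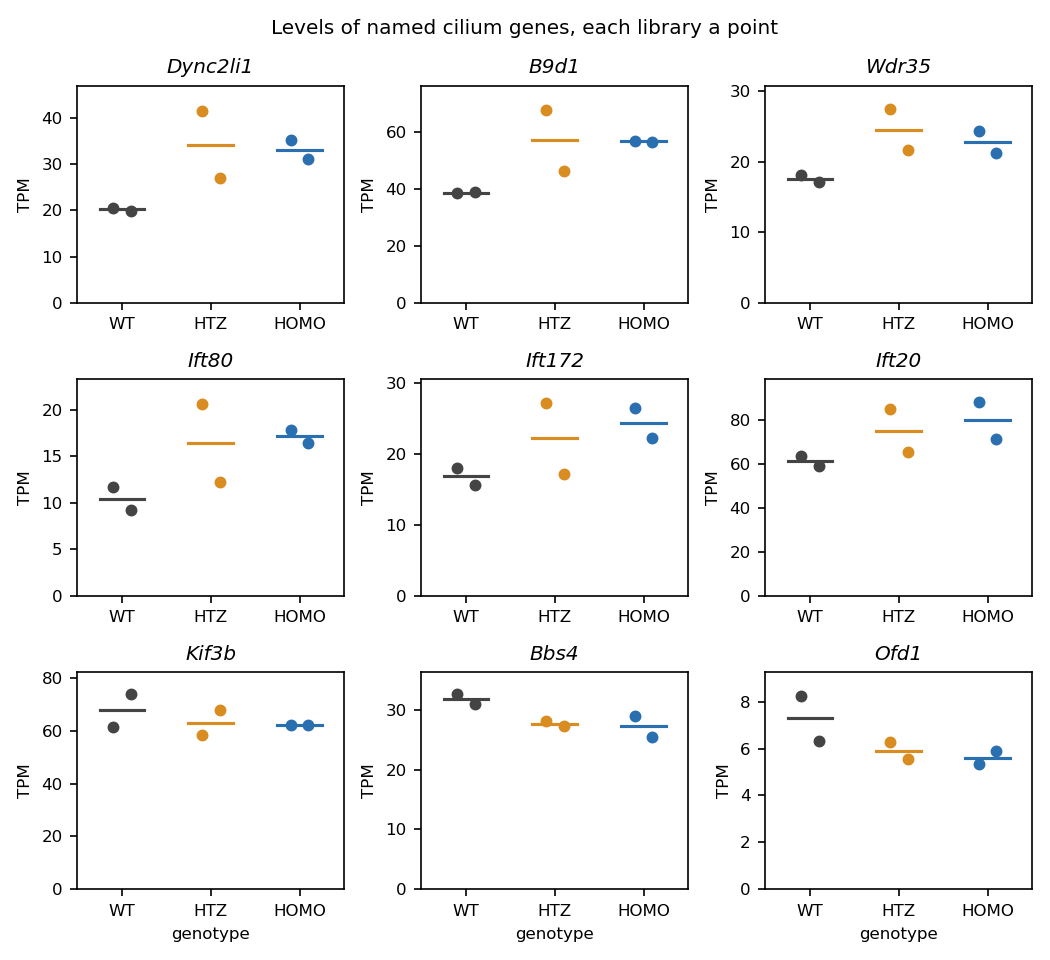
TPM (axis from 0) of 9 named genes in wild type (WT), heterozygous (HTZ) and homozygous (HOMO) libraries, each point a library and each line the mean of 2. Dync2li1, B9d1, Wdr35, Ift80 and Ift20 are higher in all floxed libraries than in wild type, Bbs4 and Ofd1 are lower in all of them, and Ift172 and Kif3b overlap.

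In the BBSome, 5 of 6 genes lay above wild type in both genotypes. Bbs1 stood at 10.5 and 9.64 TPM in the wild type pair, 15.4 and 11.6 TPM in the heterozygous pair and 14 and 12.8 TPM in the homozygous pair, with a log2 difference of 0.38 for both (SE 0.16, limma adjusted p = 0.24). Bbs9 stood at 9.49 and 7.96, 14.5 and 10.1, and 13.3 and 10.7 TPM, and Bbs5 was the remaining subunit with all 4 floxed libraries above wild type, while Bbs2 and Bbs7 overlapped. Bbs4, a subunit also found at centriolar satellites, was lower in every floxed library, at 32.6 and 31.0 TPM in the wild type pair, 28.1 and 27.3 TPM in the heterozygous pair and 29.0 and 25.5 TPM in the homozygous pair (limma adjusted p = 0.30 for both floxed genotypes). Bbs10 and Bbs12 had differences for both of 0.055 and -0.013, the latter 0.045 after median rescaling, and their groups overlapped.

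At the transition zone, 9 of 9 genes lay above wild type in homozygous and 6 in heterozygous tissue. B9d1, a B9 domain protein (chromosome 11, 61505144 to 61512931 on the plus strand, GRCm38), stood at 38.5 and 38.9 TPM in the wild type pair, 68.0 and 46.6 TPM in the heterozygous pair and 56.9 and 56.8 TPM in the homozygous pair. All floxed libraries lay above wild type by more than the gap between the wild type libraries. The log2 difference was 0.53 in heterozygous tissue (SE 0.17, limma adjusted p = 0.31) and 0.54 in homozygous tissue (SE 0.17, limma adjusted p = 0.19). In heterozygous tissue it was 0.26 without heterozygous replicate 1 and 0.80 without heterozygous replicate 2, where it passed (limma adjusted p = 0.032). B9d2, the partner of B9d1, overlapped, at 39.7 and 29.6, 44.4 and 30.3, and 39.5 and 35.3 TPM. Rpgrip1l, a scaffold of the zone, stood at 7.46 and 7.37, 12.3 and 7.95, and 9.75 and 8.74 TPM, without overlap. Tmem67, Mks1, Cc2d2a, Cep290, Tctn1 and Tctn3 overlapped between wild type and the 4 floxed libraries. Exons of Hvcn1 on the opposite strand cover 19.0% of the exonic bases of Tctn1, so its level is uncertain if reads were counted without strand, while such cover was at most 7.58% in other members.

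Ofd1 was below wild type in all 4 floxed libraries, at 8.27 and 6.35 TPM in the wild type pair, 6.27 and 5.57 TPM in the heterozygous pair and 5.33 and 5.91 TPM in the homozygous pair (limma adjusted p = 0.37 for both). Arl13b stood at 15.7 and 13.8 TPM in the wild type pair, which overlapped the heterozygous libraries given above and lay just above the homozygous ones. Its difference for both floxed genotypes changed sign under median rescaling, from -0.007 to 0.057.

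Other genes of the cilium were described from lists. Of 14 tested further IFT and motor genes, 12 lay above wild type in the mean of both floxed genotypes, with a median of 0.24 and 0 passing. Wdr60, a dynein-2 intermediate chain, stood at 6.77 and 7.43 TPM in the wild type pair, 12.6 and 8.29 TPM in the heterozygous pair and 11.96 and 9.82 TPM in the homozygous pair. Of 9 other BBS genes, 6 lay above (median 0.14, 0 passing), and Trim32, a ubiquitin ligase, was lower at 120 and 111, 90.04 and 97.9, and 93.3 and 91.8 TPM. Of 18 further transition zone and inversin genes, 12 lay above (median 0.16, 0 passing). Tmem107, a membrane protein of the zone, stood far above any member in its difference, at 13.3 and 10.3 TPM in the wild type pair, 68.3 and 22.9 TPM in the heterozygous pair and 52.0 and 32.6 TPM in the homozygous pair (1.71 for both, limma adjusted p = 0.11).

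Genes that start ciliogenesis and genes that use the cilium were described in the same comparison, in which 42.2% of all tested genes lay above wild type with a median of -0.049. Of 23 genes of ciliogenesis initiation and distal appendages, 11 lay above wild type (median -0.081, 0 passing). Of 17 hedgehog pathway genes 3 did (median -0.18, 0 passing), and Gpr161, a ciliary receptor that restrains the pathway, stood at 26.5 and 24.6, 23.0 and 20.1, and 19.1 and 12.4 TPM. Gli1, a target gene of hedgehog signals, stood at 8.74 and 5.98, 4.31 and 4.14, and 7.44 and 4.81 TPM. Of 14 genes of ciliary membrane signalling and lipid cargo, 11 lay above (median 0.096, 0 passing). Among them Mchr1, a ciliary receptor of neurons, stood at 0.69 and 2.14, 1.93 and 2.81, and 3.75 and 3.92 TPM. In the same comparison, 16 of 70 motile axoneme genes and Foxj1 passed with limma, where 0.592% of tested genes did. The 16 became 2 after median rescaling, 2 without an eBayes trend and 1 with no filter, and Foxj1 did not pass in those fits. The count rose to 35 with a pseudocount of 0.1 TPM and to 41 with the replicate block, and Foxj1 passed in both. With 1 library left out the count ran from 1, without either wild type library, to 60, without heterozygous replicate 2; it was 2 without either homozygous library and 38 without heterozygous replicate 1. Lists of neuronal and of cell cycle genes lay below wild type in this comparison. The 24 pan-neuronal genes had a median of -0.19 and 36 cell cycle genes one of -0.36, with 0 passing in either. A list of 24 radial glia and neural stem cell genes went the other way, with a median of 0.086, 14 above and 0 passing. Microglia genes, 20 in number, had a median of 0.71 with 0 passing. Of 15 astrocyte genes, 15 lay above wild type, with a median of 0.45 and 1 passing, the lipoprotein gene Apoe. They summed to 1650 and 1935 TPM in the wild type pair, 3042 and 2710 TPM in the heterozygous pair and 3153 and 3746 TPM in the homozygous pair, so the floxed libraries were all higher. Of 13 oligodendrocyte genes, 12 lay above, with a median of 0.34 and 0 passing, and the part of these cell types in the members' values was not tested.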

How the data were processed

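The authors deposited 1 table of TPM values for the 6 libraries. The submitters' design text names TopHat 2.0.11 (mm10) for alignment and Cufflinks 2.2.1 with RefSeq transcripts for the analysis, while the submitters' processing notes list FastQC, RSEM, mm10 and GRCm38. Which of these made the table, and how strand and multiply mapping reads were treated, is not given in the sources used here. Depth is unknown, so no counting interval was computed.

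Values were used as log2(TPM + 1), which understates changes of low genes. The 14518 genes that averaged 1 TPM or more entered limma 3.58.1 (R 4.3.3) with all 6 libraries and 1 coefficient for each genotype, leaving 3 residual degrees of freedom (eBayes with trend, Benjamini-Hochberg adjustment at 0.05). An exact test of 2 libraries against 2 has a smallest two-sided p of 0.33, so none was used.

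Members, gene lists and comparisons were chosen with earlier results of these data known. The rule names the 6 members with the smallest p in each comparison, the highest and lowest member of each role, and up to 3 genes of each further cilium list. Other members, and Gli1 and Apoe, were named after their values were seen. Positions and exon overlaps came from GENCODE vM21 (GRCm38), promoter windows from RefSeq (GRCm38.p6). Alternatives covered the pseudocount, filter, scaling, eBayes trend, replicate block, genotypes in the fit, and libraries left out.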

Additional observations from a re-analysis of the deposited data

How the results depend on the processing

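No member passed with limma under any setting that kept all 6 libraries. With a library left out, the count of members called ran from 0 to 2 for heterozygous against wild type and for the mean of both floxed genotypes against wild type; the 2 were Dync2li1 and B9d1, without heterozygous replicate 2. Such a fit keeps 1 library in that genotype and assumes that it varies like the others, as does the fit without the 2 libraries highest in Ttr. Counts of all genes called moved far more. For heterozygous against wild type 5 became 49 with a pseudocount of 0.1, 1 with no filter, 9 with the replicate block, 152 without the 2 libraries highest in Ttr, and 3 to 397 with 1 library left out. For homozygous against wild type 6 became 149, 3, 283 and 491 in the same order, 393 with only those genotypes in the fit, and 3 to 397 with 1 library left out. For homozygous against heterozygous 2 became 1 with no filter, 1 without a trend, 12 without the libraries highest in Ttr, and 1 to 5 with 1 left out. For the mean of both floxed genotypes 86 became 227 with a pseudocount of 0.1, 3 with no filter, 5 after median rescaling, 7 without a trend, 390 with the replicate block, 410 without the libraries highest in Ttr, and 4 to 601 with 1 left out. The cause was not tested.

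The median difference of members ran from -0.023 to 0.36 for heterozygous against wild type and from -0.18 to 0.22 for homozygous against heterozygous tissue with 1 library left out. Under the other settings it moved by less than 0.19, the SD of library medians within genotypes. That SD is larger than each median difference itself, so a move below it does not show a stable median. Without the 2 libraries highest in Ttr the median was -0.023 for heterozygous against wild type and 0.033 for the mean of both floxed genotypes. Between homozygous and heterozygous tissue, leaving out 1 library moved Bbs2 from -0.0036 to 0.41, Ttc21b from -0.35 to 0.023, Tctn1 from -0.036 to 0.44 and Ift57 from -0.19 to 0.0025. The main fit did not treat the replicate numbers as pairs. Deviations of same-numbered libraries correlated across genes at 0.21 for wild type and heterozygous, and at -0.088 for wild type and homozygous. For heterozygous and homozygous the correlation was 0.35. Whether same-numbered libraries belong together was not tested. The replicate block called 0 members in each comparison. Rescaling shifted wild type replicate 1 by 0.10 on the log2 scale, the largest shift of the 6 libraries. It changed the sign of 4 members for heterozygous against wild type (Ift46, Kif3a, Kifap3 and Tctn1), 1 for homozygous (Ift27) and 3 for the mean of both (Arl13b, Bbs12 and Cep290). Differences near the gap between replicates, as for most members, could not be told from it with 2 libraries a genotype.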

Other observations

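The RFX genes, whose products bind the X-box, were measured in every library. Rfx2 had 2.75 and 2.36 TPM in the wild type pair, 9.83 and 4.33 TPM in the heterozygous pair and 7.56 and 5.84 TPM in the homozygous pair. All floxed libraries lay above wild type, and the gene did not pass (limma adjusted p = 0.13 for the mean of both floxed genotypes). Rfx3, the most abundant of the 4 listed, lay lower in all floxed libraries, at 38.8 and 35.3, 32.3 and 31.6, and 33.8 and 31.6 TPM (limma adjusted p = 0.31). Members that hold GTTGCC in their promoter window had a median log2 difference of 0.11 for both floxed genotypes, with 15 of 17 above wild type. Members with a window and no GTTGCC had 0.098, with 11 of 19 above. The 5 members with no window are in neither group, and they include the 2 members with the largest differences, Dync2li1 at 0.69 and Ift80 at 0.63. The difference between these groups was not tested.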
